A study of Mus musculus with 2 samples.

Results

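The Snrpn to Ube3a domain is an imprinted stretch of mouse chromosome 7, described here by 5 member genes, Ube3a, Snrpn, Ndn, Magel2 and Mkrn3, and by the CTCF peaks around them. The members were located on the mm10 build by name. A window ran from 200 kb before the first member, Ube3a, to 200 kb after the last, Mkrn3 (chr7:59028750-62620153, 3.59 Mb). All peaks of the authors' conservative set with a summit in that window were taken, which gave 19 of the 43344 on the autosomes and X. The cells were E14TG2a.4, embryonic stem cells from a male embryo of strain 129/Ola, with an age of 3.5 day in the labels, and the assay was ChIP-seq with an antibody to CTCF. The series held 2 libraries, biological replicates 1 and 2 of 1 group, so no contrast between conditions could be made. No treatment or genetic change was named for the line, and both libraries come from the same line. Whether they come from separate cultures is not said beyond the replicate numbers, so the spread between them may be partly technical. The lists carry no allele information, and binding to the maternal and paternal chromosomes cannot be told apart.

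In an imprinted domain, genes are expressed from the chromosome of 1 parent. In this domain most genes, Snrpn, Ndn, Magel2 and Mkrn3 among them, are expressed from the paternal chromosome, under an imprinting centre at the Snrpn promoter. Ube3a, a ubiquitin ligase, is expressed from the maternal chromosome in neurons, where the long paternal transcript Snhg14, host to clusters of small nucleolar RNAs, runs against it. Loss of the paternal genes in humans is known for Prader-Willi syndrome and loss of maternal UBE3A for Angelman syndrome. CTCF is a zinc-finger protein that binds a long asymmetric motif and stops cohesin in loop formation, with an effect that depends on the strand of the motif.

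The sequences under the peaks are given first, for the peaks beyond Ndn, which hold most of the domain's strong signal. They are also given for a group of near-identical copies beyond Snrpn as the mm9 annotation draws it. Of the 21 mm9 peaks of the window, 9 lay in the first group, 7 in the second and 5 in neither. They come from the mm9 build, the only genome at hand, and from the mm9 peak lists. The 19-base motif was learned from 3000 mm9 peaks on other chromosomes, and its consensus was TGGCCACCAGAGGGCGCTA. The best match in each of the 9 peaks between the Ndn start and the end of the window is shown in capitals with 10 bases either side, read 5′ to 3′ on the strand of the match. Each is named by its distance from the Magel2 start, position and strand.

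1.13 kb before, chr7:69520716-69520754, − strand: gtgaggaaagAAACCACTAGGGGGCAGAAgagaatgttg

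5.72 kb after, chr7:69527475-69527513, − strand: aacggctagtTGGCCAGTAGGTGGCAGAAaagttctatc

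11.5 kb after, chr7:69533361-69533399, − strand: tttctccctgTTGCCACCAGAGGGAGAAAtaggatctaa

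23.4 kb after, chr7:69545161-69545199, − strand: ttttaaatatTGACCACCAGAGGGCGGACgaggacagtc

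51.6 kb after, chr7:69573400-69573438, − strand: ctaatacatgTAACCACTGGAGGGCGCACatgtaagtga

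56.5 kb after, chr7:69578329-69578367, − strand: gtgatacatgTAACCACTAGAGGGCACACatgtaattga

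59.6 kb after, chr7:69581428-69581466, + strand: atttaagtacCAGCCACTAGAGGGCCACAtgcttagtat

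87.7 kb after, chr7:69609567-69609605, + strand: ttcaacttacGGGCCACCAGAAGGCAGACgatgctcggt

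165.4 kb after, chr7:69687322-69687360, + strand: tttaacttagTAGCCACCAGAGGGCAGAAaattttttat

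The first 6 of these 9 matches lay on the − strand and the last 3 on the + strand, so the 2 runs pointed away from each other. The change of strand fell between the peaks 56.5 and 59.6 kb past the Magel2 start, which lie upstream of Mkrn3. Both matches next to the change toward Peg12, at 59.6 and 87.7 kb, were weak. The scores of the 9 matches ranged from 14.3 to 21.2 bits. A score of 19.03 bits was reached by the best match in 1% of flanking windows of a peak's length taken 5 kb away, and 5 of the 9 peaks passed it, 4 of the 6 on the − strand and 1 of the 3 on the + strand, the one at 165.4 kb. The matches at 51.6, 59.6 and 87.7 kb, of 14.3, 15.1 and 14.5 bits, were also under the 15.5 bits that 5% of flanking windows reach. Of the 9 pooled peaks before the Ndn start, 1 passed, a peak 168.7 kb upstream of Ndn with a score of 21.4 bits, the highest of the window. At 165.4 kb the printed match lay 94 bp from the midpoint of the peak, and another + strand match, of 19.5 bits, lay at the midpoint. A match is a description of the letters and not evidence of binding at that base.

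The second group lay in the region upstream of Snrpn in the mm9 annotation. There the mm9 lists held 7 peaks whose centres were at least 90% identical to those of another peak in the window. Within this group, 3 peaks shared a single motif match, of 14.2 bits on the + strand. Their positions are given as distance upstream of the inner Snrpn start, the start nearest the gene's 3′ end, which RefSeq gives to Snurf as well. Distances on each build were taken from that build's own annotation. Snrpn is 0.158 Mb long in the mm9 annotation and 0.468 Mb in the mm10 one. A distance that lies upstream of the gene on mm9 can therefore lie inside it on mm10.

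233.9 kb upstream, chr7:67383854-67383892: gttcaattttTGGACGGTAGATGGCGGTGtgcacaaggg

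381.9 kb upstream, chr7:67532027-67532065: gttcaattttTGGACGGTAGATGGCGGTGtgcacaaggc

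483.1 kb upstream, chr7:67633110-67633148: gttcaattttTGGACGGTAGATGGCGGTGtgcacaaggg

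The capital letters were the same in all 3 copies. Over their centres these 3 peaks were 93.02% to 95.3% identical. The other 4 peaks formed 2 pairs, 96.7% and 98.0% identical, with the members of each pair 102.2 kb apart. The last 2 of the 3 copies shown were 101.1 kb apart. So a row of 3 peaks, at 369.0, 374.8 and 381.9 kb, recurred at 471.2, 476.9 and 483.1 kb. The other pairs' best matches scored no more than 4.79 bits, far under the 19.03 bits above. An example from the 374.8 kb peak, chr7:67524801-67524839 on the + strand, shows a core close to that of the first family:

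374.8 kb upstream, chr7:67524801-67524839: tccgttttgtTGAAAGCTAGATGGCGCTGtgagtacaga

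CTCF peaks were sparse across the domain as a whole. The window held 5.29 peaks per Mb (19 peaks, 95% exact Poisson interval 3.19 to 8.26), against 20.4 per Mb in the rest of chr7 (2896 peaks, 19.7 to 21.2). The ratio was 0.259, and the intervals did not overlap. They cover counting error only, since peaks in a region are not independent, and with 1 group no test of the difference was made. Taken alone, the strongest 43344 entries of replicate 1 gave a ratio of 0.216 and those of replicate 2 gave 0.217. The mm9 lists gave 0.296 with the pooled peaks, 0.372 with replicate 1 and 0.279 with replicate 2.

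The long lists behind the conservative set, which hold weak entries along with peaks, were sparse there too. Replicate 1 listed 33.97 entries per Mb in the window and 128.2 in the rest of chr7. Replicate 2 listed 44.0 and 123.1, and the pooled list 30.4 and 129.8. The conservative set took 17.4% of the pooled entries in the window and 15.7% elsewhere on chr7. That share was uneven within the window, at 11.8% (10 of 85) before the Ndn start and 37.5% (9 of 24) after it.

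The window also held few protein-coding genes, 8 in all or 2.23 per Mb, against 14.3 per Mb in the rest of chr7. When chr7 was laid out in tiles of the window's length, 37 tiles lay apart from it, with a median of 20.0 peaks per Mb and a range of 3.34 to 48.4. Of these, 3 held fewer peaks than the window. The 8 tiles with at most 16 coding genes held 4.18 to 17.5 peaks per Mb, and the window lay near the lower end of that range. The lowest of the 8, with 9 coding genes, lay before the window at chr7:53386188-56977591. The tile before that one held 6.13 per Mb, so low peak density was not particular to the window. Among other imprinted domains with the same flanks, the distal chromosome 7 domain held 39.3 per Mb, the Dlk1 to Dio3 domain 26.9 and the Peg3 domain 20.2. Their windows were shorter, at 1.37, 1.23 and 0.693 Mb against 3.59 Mb here. The flanks are thus a larger part of them, and length was not matched. The Dlk1 to Dio3 domain held only 3.26 coding genes per Mb, close to the gene density here, with a peak density whose interval (18.5 to 37.7) lay above the interval of the Snrpn to Ube3a window.

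**Figure D1:**
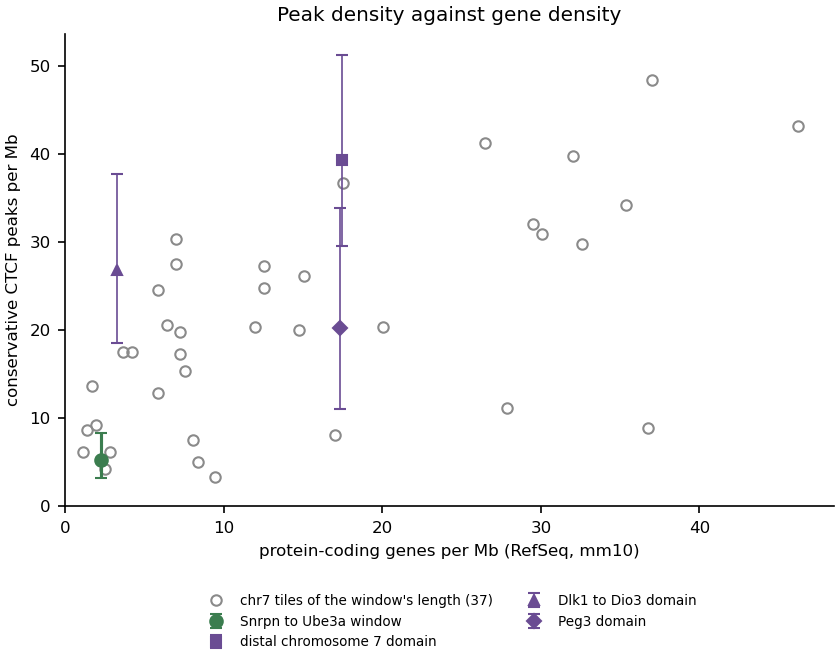
Conservative CTCF peaks per Mb (vertical) against protein-coding genes per Mb (horizontal) for 37 tiles of chr7 (open circles), the Snrpn to Ube3a window and 3 other imprinted domains. Bars are 95% exact Poisson intervals. The window, at 5.29 peaks and 2.23 genes per Mb, sits near the lower end of the tiles of low gene density. The Dlk1 to Dio3 domain sits above it at a similar gene density.

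The peaks were not spread evenly. From the start of the window to the Ndn start, 3.32 Mb held 10 peaks, or 3.01 per Mb (1.44 to 5.54). From the Ndn start to the end of the window, 0.272 Mb held 9 peaks, or 33.1 per Mb (15.1 to 62.8). The first stretch had a median signal of 29.0, on the deposited scale, and the second 108. The border at Ndn was chosen after the peaks were seen, so this contrast is a description. Of the 7 window peaks above the median of the other chr7 peaks, 81.9, 6 lay past the Ndn start. The median over all 19 was 55.5, a ratio of 0.678 to the rest of chr7. With no flanks, from Ube3a to Mkrn3 only, that ratio was 0.422, which leaves out the 5 peaks past Mkrn3 and the 1 before Ube3a.

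**Figure D2:**
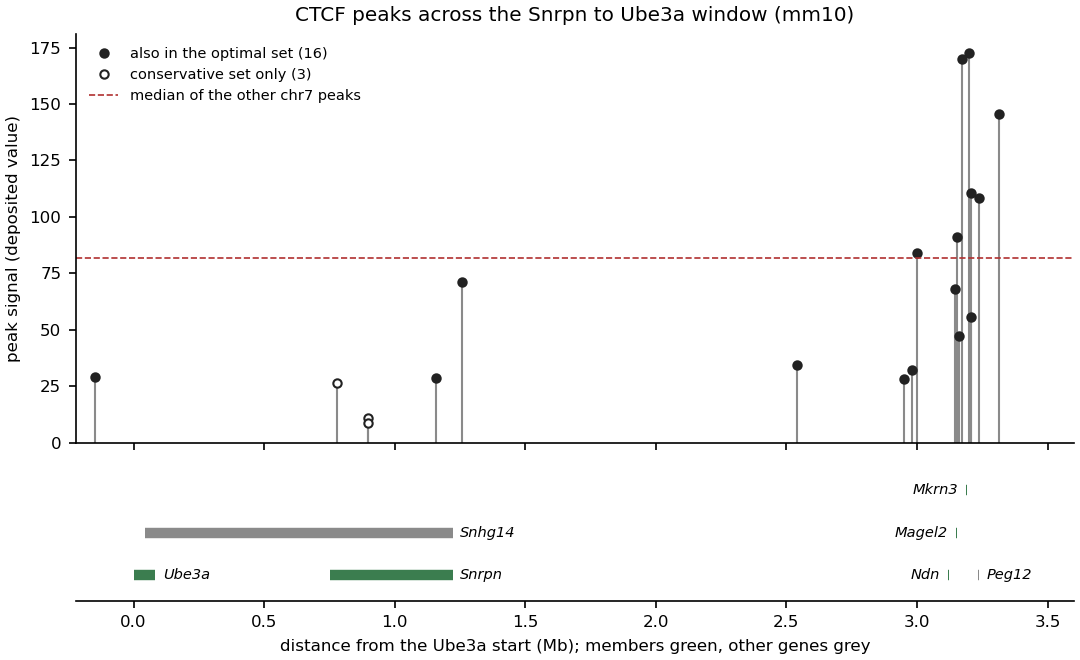
Signal of each of the 19 conservative peaks (upper panel, deposited value) by distance from the Ube3a start in Mb, with members in green and other genes in grey below. Filled points are the 16 peaks also in the optimal set, open points the 3 that are not, and the dashed line is the median of the other chr7 peaks, 81.9; the tall points stand at the right, past Ndn.

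Ube3a, the ubiquitin ligase gene at the left end (chr7:59228750-59310837, + strand), had no conservative peak inside its 82.1 kb. The nearest summit lay 148.5 kb upstream of its start, farther than for 92.4% of protein-coding genes. Genome-wide, 86.7% of 2910 coding genes between 80 and 500 kb long held a summit, a range with Ube3a at its short end. That distant peak was weak, with a signal of 18.1 in replicate 1 and 10.8 in replicate 2, and these were 0.435 and 0.279 times the replicates' medians. The strongest of the weak pooled entries within 5 kb of the Ube3a start had a signal of 7.79, near the lowest value of the pooled list, 7.60. Replicate 1 listed none there, and replicate 2 listed 2 of at most 5.87.

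Between Ube3a and Snrpn, 0.672 Mb held no conservative peak, where the upper limit of the exact interval is 5.49 per Mb. The RefSeq table places 206 small nucleolar RNA genes there over 634 kb. Across them the pooled list held 4 entries, the strongest at 10.4. Around the 17 Snord116 genes, whose paternal loss is the core of Prader-Willi deletions, no list held an entry. The peak-free interval that covers Ube3a and this region ran for 0.928 Mb and ranked 10 among the 2914 intervals between neighbouring summits on chr7, whose median was 16.5 kb. Only 36.6% of the 32-base words between Ube3a and Snrpn occurred once in the mm9 genome, against 78.7% in the rest of chr7, and the mm9 sequence there has a gap of 50000 unknown bases. Reads that map to several places are often dropped, the way they were treated is not given in the sources used here, and their part in the missing peaks was not tested. Within Ube3a itself, no list on mm9 held a peak and 89.5% of the words occurred once, and a link between these was not tested either.

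Snrpn, which encodes a spliceosomal protein and shares its first transcript with Snurf, has 4 listed starts over 467.7 kb (chr7:59982495-60450177, − strand). It was the 1 member of 5 with a summit inside the gene, and it had 4. Genome-wide, 42.3% of 21627 coding genes held one, a share not matched for length. Among the 2910 coding genes between 80 and 500 kb long, a range with Snrpn near its long end, it was 86.7%. Ndn, Magel2 and Mkrn3 are short, at 1.65, 4.66 and 2.56 kb. The peak nearest to a start lay 2.71 kb upstream of the inner start, with a signal of 16.7 in replicate 1 and 9.13 in replicate 2. These were 0.402 and 0.236 of the replicates' medians, and the peak was missing from the optimal set. No entry of any list lay within 5 kb of the outermost start. The middle starts had at most a weak entry nearby, with pooled signals no higher than 8.40.

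A pair of summits 202 bp apart, 119.9 and 120.1 kb upstream of the inner start, had pooled signals of 11.0 and 8.67, the lowest of the window. Neither had a replicate 1 summit within 100 bp, and both lay beside the same replicate 2 entry of signal 10.6. Both were missing from the optimal set, so of the 4 summits inside Snrpn the optimal set kept 1, at 382.0 kb. At that place replicate 1 read 17.2, with a summit 115 bp away, and replicate 2 read 12.1. Just past the outermost start, at 483.0 kb, lay a stronger peak, which read 43.1 in replicate 1 (105 bp away) and 32.5 in replicate 2, close to the replicates' medians.

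These 2 mm10 peaks stood at the same distances from the inner Snrpn start as 2 of the copied mm9 sequences printed above. In the mm9 lists the copy at 381.9 kb had a fold enrichment of 19.8 in replicate 1 and 16.9 in replicate 2. The copy at 483.1 kb had 20.9 in replicate 1, but neither replicate 2 nor the pooled list held it. The copy at 233.9 kb had 6.86 in replicate 1 and was not listed in replicate 2. On mm10 the peak at 483.0 kb was higher in both replicates than that at 382.0 kb, with pooled signals of 71.3 and 28.9, and no list had an entry near 233.9 kb. The 7 copied mm9 peaks had between 29.3% and 58.8% of their 32-base words once in the genome, against 70.0% to 100% for the other 14. How the reads of such copies were shared among them was not stated, and its part in the differing values was not tested.

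Past Snrpn came the longest peak-free interval of the window, 1.28 Mb, which ranked 5 of 2914 on chr7. The highest pooled entry inside it had a signal of 12.8. On mm9 the longest interval between pooled peaks was 1.70 Mb and ranked 6 of 2625. In it 74.9% of the 32-base words were found once, close to the 78.7% of the rest of chr7. It is not the same stretch as on mm10 and was free of peaks in the pooled list only. Replicate 1 listed peaks inside it, among them the copy at 483.1 kb with a fold of 20.9. The mm10 interval ended at a weak peak inside the noncoding gene A230057D06Rik, which read 18.2 in replicate 1 and 16.4 in replicate 2. On mm9 the same place was listed in replicate 1 only, with a fold of 5.28.

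Ndn, a gene without introns that encodes the MAGE-family protein necdin (chr7:62348277-62349928, + strand), had no peak in its body or within 10 kb. The nearest summit lay 27.6 kb downstream of its start, the one just before Magel2. The highest pooled entry within 5 kb had a signal of 9.82, and replicate 1 listed none. Upstream of Ndn, 3 peaks lay 168.7 kb, 138.7 kb and 120382 bp away. The first read 10.4 in replicate 1 and 16.5 in replicate 2, and the second 13.1 and 18.9. The nearest read 43.8 and 42.4, which were 1.05 and 1.10 times the replicates' medians. On mm9 this nearest peak had a fold of 12.9 and 13.4, and its best motif score was 2.02 bits, the lowest of the 21 mm9 peaks in the window.

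Magel2, another MAGE-family gene without introns and one whose mutation causes Schaaf-Yang syndrome (chr7:62376979-62381640, + strand), lay between peaks. The summit 1.11 kb upstream of its start read 36.4 in replicate 1 and 33.9 in replicate 2, both within 0.873 to 0.876 of the replicates' medians. The next summit, 5.65 kb past the start and so beyond the gene's end, read 50.5 and 41.3. The one after it, at 11.5 kb, read 22.9 and 22.8. No list held an entry inside Magel2. These 3 peaks and the next, at 23.4 kb, fell inside the noncoding gene Gm32061.

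The highest values of the domain flanked Mkrn3, a gene without introns for a ring-finger protein known to restrain the onset of puberty (chr7:62417593-62420153, − strand). The summit 19.8 kb downstream of its start read 105 in replicate 1 and 64.5 in replicate 2. The summit 8.39 kb upstream read 101.3 and 70.0, with a pooled signal of 172.5, above 90.3% of chr7 peaks. Relative to the replicates' medians, that strongest peak was 2.43 and 1.81, a mean of 2.12 ± 0.443 (SD, n = 2). No list held an entry in the Mkrn3 body. Further upstream, at 13.3 and 16.4 kb, summits read 56.6 and 54.4, then 31.4 and 23.1, in replicates 1 and 2. The mm9 lists put their own highest fold of the pooled peaks at the same place 8.40 kb upstream of Mkrn3, with 25.9 in replicate 1 and 22.3 in replicate 2. The strand change in the printed sequences fell between the last 2 of these 4 peaks.

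Beyond the members, Peg12, a paternally expressed gene that encodes a GSK3-binding protein of the Frat family, had the summit closest to a start, 158 bp upstream. It read 50.2 in replicate 1 and 59.0 in replicate 2. The 250 bases upstream of the Peg12 start (RefSeq, GRCm38.p6, chr7:62464511-62464760, − strand) are shown because the peak lies in them, with the best motif match in capitals:

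Peg12 upstream: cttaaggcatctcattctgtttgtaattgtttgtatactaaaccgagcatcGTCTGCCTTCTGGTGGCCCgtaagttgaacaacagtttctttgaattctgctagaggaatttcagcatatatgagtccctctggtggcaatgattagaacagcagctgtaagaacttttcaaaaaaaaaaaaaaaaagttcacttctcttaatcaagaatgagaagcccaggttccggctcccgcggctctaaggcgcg

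In capitals is the reverse complement of the 19 bases printed for the peak at 87.7 kb. It scored 14.5 bits, under the 15.5 bits that 1% of flanking windows reach when 100 bp either side of a midpoint is searched. That score was reached on either strand by 1.90% of 32851 RefSeq promoters of 300 bases. No member promoter reached that score. The last peak of the window, 165.4 kb past the Magel2 start, lay in no listed gene and read 81.7 in replicate 1 and 63.1 in replicate 2.

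**Figure D3:**
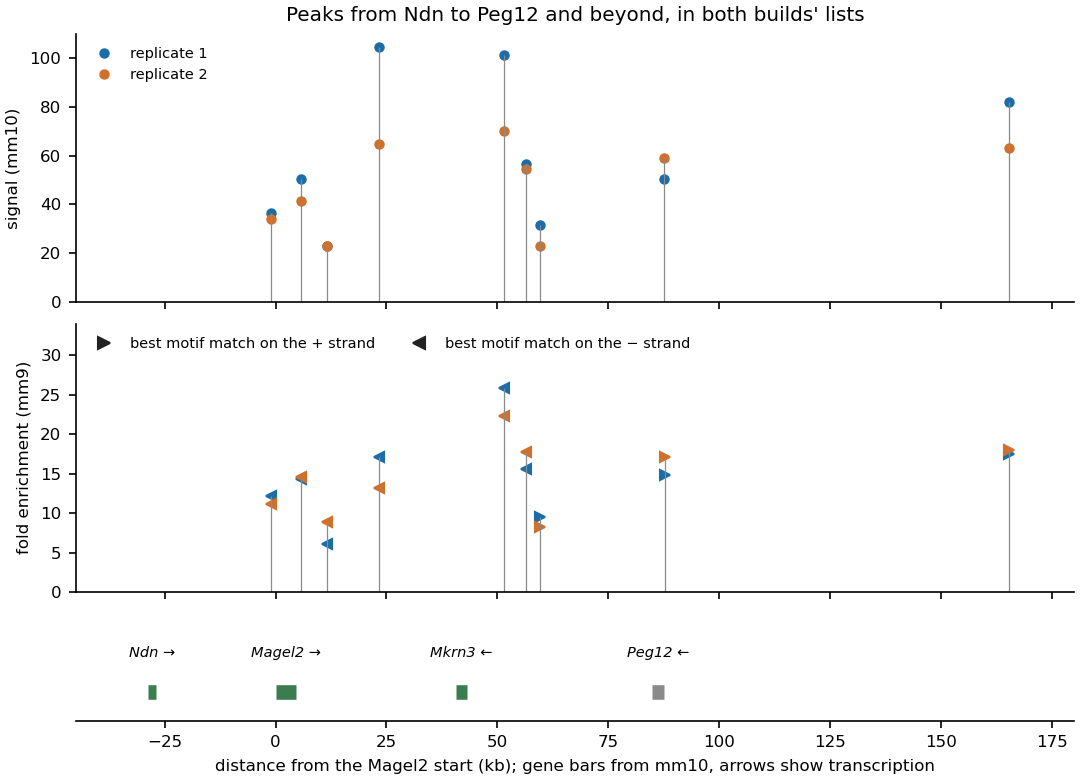
Peaks from Ndn to beyond Peg12 by distance from the Magel2 start in kb: mm10 signal (top) and mm9 fold enrichment (middle) in replicate 1 (blue) and replicate 2 (orange), with genes at the bottom. In the middle panel each marker points in the strand direction of the best motif match; the first 6 peaks point left and the last 3 right, and both builds show 9 peaks at matching distances.

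Peaks near a start were counted against all genes. A summit lay within 10 kb of a start in 3 of 5 members, Snrpn, Magel2 and Mkrn3, and in 44.6% of 17273 coding genes (44.1% on chr7). None of the members had one within 1 kb, where 9.96% of all coding genes do. In the optimal set Snrpn lost its nearby peak and the count was 2. Beyond coding genes, Ipw, a noncoding transcript between Ube3a and Snrpn, held no summit. Of 11 listed protein-coding neighbours, 6 had a summit inside, against 42.3% of all coding genes. Some of these neighbours are long, such as Gabrg3 (670.8 kb) and Oca2 (296.9 kb), and gene length was not matched. A summit lay within 10 kb of the start in 4 of the 10 neighbours whose start was listed, against 44.6% of all coding genes. Among the 4 is Snurf, whose start and summit are those already counted for Snrpn. Outside the window the count was 2 of 8. The 9 neighbours that lie outside the window included the 6 with a summit inside the gene, namely Atp10a, Gabra5, Gabrg3, Oca2, Nipa1 and Cyfip1, and 3 with none, Herc2, Nipa2 and Tubgcp5. The GABA receptor subunit genes Gabra5 and Gabrg3 held 4 summits each, with highest pooled signals of 145.6 and 94.4. The pigment gene Oca2 held 2, with a highest of 230.1. Atp10a, Nipa1 and Cyfip1 held 1 each, and the highest pooled entries inside them were 120.3, 56.1 and 30.5.

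A smaller share of the window's peaks than of chr7's was found among the strongest entries of both replicates. Of the 19 window peaks, 12 (63.2%, with exact Clopper-Pearson bounds of 38.4 and 83.7) matched a summit no more than 100 bp away among the strongest 43344 entries of each list, against 87.5% of all 2915 chr7 peaks, and 12 of the 19 were weaker than the chr7 median. The bounds treat the 19 peaks as independent, which peaks of 1 region are not, and the difference from chr7 was not tested. The window share with a 250 bp limit was 73.7%, and no chr7 share was computed at that limit. In the complete lists, 15 peaks had a summit within 100 bp in both replicates. Relative to each replicate's median, 8 were higher in replicate 1 and 7 in replicate 2. The log2 ratio of replicate 1 to replicate 2 ran from −0.77, 168.7 kb upstream of Ndn, to 0.77, at the peak 2.71 kb upstream of the inner Snrpn start. A difference above 1.5-fold was seen in 5 of the 15 and in 16.01% of chr7 peaks. The 5 were peaks 1, 2, 8, 9 and 14 of the plot of replicate signals, of which the first 4 were weak and the last was the peak 23.4 kb past the Magel2 start.

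**Figure D4:**
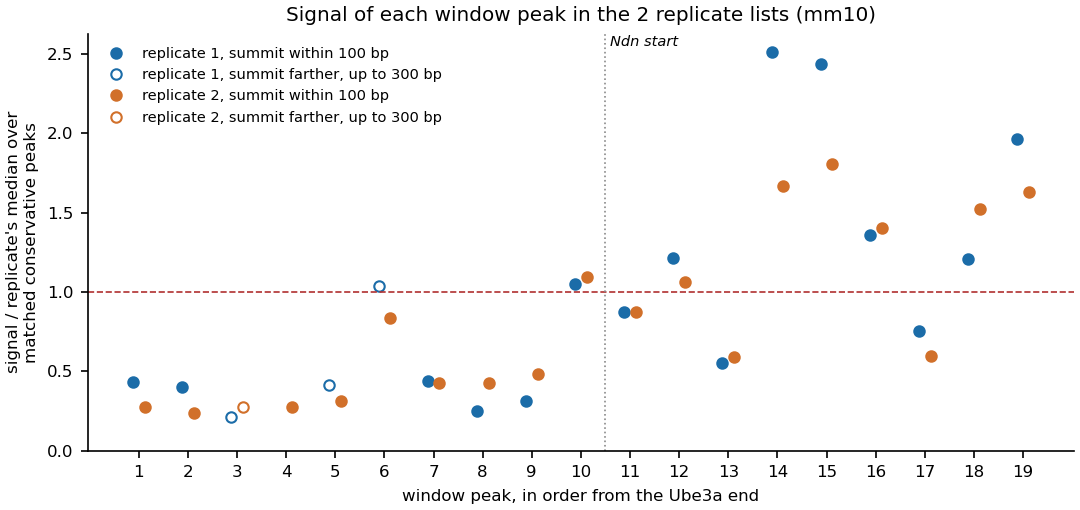
Signal of each window peak in replicate 1 (blue) and replicate 2 (orange), divided by that replicate's median over matched conservative peaks (dashed line at 1); peaks run in order from the Ube3a end. Filled points have a summit within 100 bp and open points one farther off, up to 300 bp; before the Ndn start (dotted line) all points but those of peaks 6 and 10 lie under 0.5, and peak 4 has no replicate 1 point.

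Matches to the CTCF motif were sparse in the window, like the peaks. On mm9 the window held 39 matches of at least 15.5 bits, or 11.2 per Mb, against 43.3 per Mb in the rest of chr7. Of these, 28.2% (11 of 39) lay in pooled peaks, near the 29.6% elsewhere. From Ndn to Mkrn3 there were 69.6 matches and 55.7 pooled peaks per Mb, and from Snrpn to Ndn 5.89 and 4.08. In 4 segments matches stood without a pooled peak. These were the stretch before Ube3a (3 matches, 15 per Mb), Ube3a (3, 38.5 per Mb), Ube3a to Snrpn (8, 14.2 per Mb) and Snrpn (3, 19.02 per Mb). That mm9 Snrpn segment covers 0.158 Mb, and the mm10 gene, with 4 summits, covers 0.468 Mb. The Snrpn segments of the 2 builds are thus not the same stretch. The window's bases were 38.4% G or C, against 43.2% in the rest of chr7. By peak, 6 of 18 pooled peaks (33.3%, 13.3 to 59.0) held a match at the 1% score, against 36.5% on the rest of chr7. At the 5% score the shares were 44.4% and 66.5%, and at the 0.1% score no window peak passed, against 13.2%. When only 100 bp either side of the midpoint was searched, 38.9% passed at the 1% score against 55.3%, 66.7% at the 5% score against 78.9%, and 11.1% (2 of 18) at the 0.1% score against 20.9%. The window share was the lower one in all 6 of these settings, which rest on the same peaks. The pooled window peaks include near-identical copies from the second group, none of which passed either 1% score. Copies are not independent peaks, and the shares without them were not computed.

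**Figure D5:**
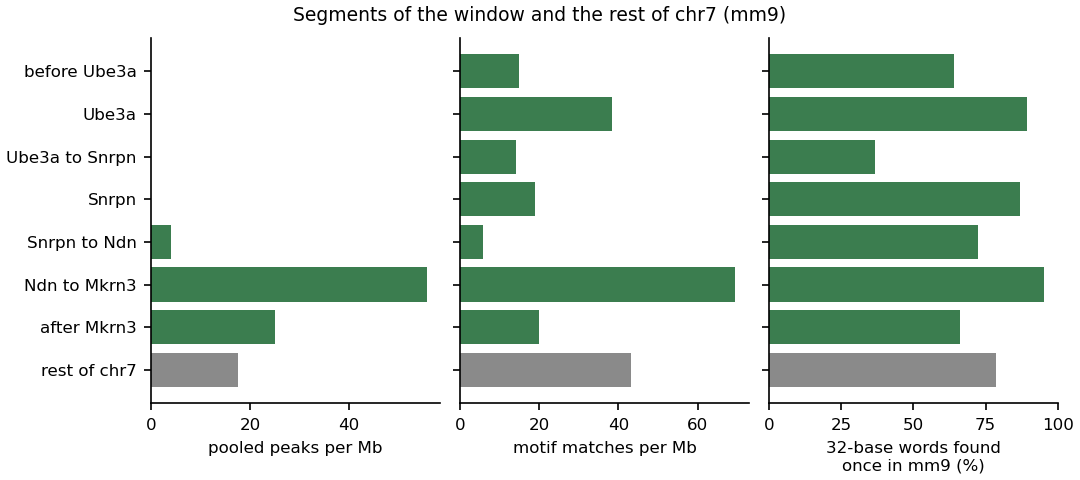
Pooled mm9 peaks per Mb, motif matches per Mb and the percentage of 32-base words found once in the genome, for 7 segments of the window (green, in order from the Ube3a end) and the rest of chr7 (grey). The segment from Ndn to Mkrn3 is highest in all 3 panels, and the segment from Ube3a to Snrpn has the lowest share of single-copy words, 36.6%. Segments follow the mm9 annotation, in which Snrpn covers 0.158 Mb, less than on mm10.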

How the data were processed

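The mm10 lists hold peaks and background entries that the authors deposited per replicate and pooled, each with a signal value of unstated scale, and the authors' conservative and optimal IDR sets with an integer score and a −log10 q value. The mm9 lists are deposited peaks with a fold enrichment (a ratio) and a −log10 p value. Caller, aligner and depth: not given in the sources used here. Peaks were placed by summit on mm10 and midpoint on mm9, and builds were never converted. Distances use RefSeq (GRCm38.p6) for mm10 and GENCODE vM1 for mm9. The chr7 length on mm10 ran to the last entry (145340719). Relative signal is the signal over the replicate's median across 41382 conservative peaks matched within 100 bp, 41.6 and 38.7. Copies were counted over 32-base words every 10 bp on both strands. The motif, copy and window steps were tested on simulated data. Python 3.11.15, scipy 1.17.1, numba 0.67.0 and edlib 1.3.9.post1 were used. The naming rule takes the members, listed neighbours and every window peak; 1 listed item is not reported here. The members and lists were chosen with earlier results of these data known.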

Additional observations from a re-analysis of the deposited data

How the results depend on the processing

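Of 39 alternatives over 9 results, 18 moved the value beyond its spread, interval or a 1.5-fold limit on counts. For the mm10 density ratio and the longest interval, the spread was the SD of the 2 single-replicate values, which were nearly equal. Small changes in these results therefore counted as moved, and the count of 18 is no measure of stability. The window held fewer peaks per Mb than the rest of chr7 in every alternative for the mm10 and mm9 density ratios. The mm10 density ratio of 0.259 was 0.200 with no flanks, 0.246 with 100 kb, 0.244 with 500 kb, 0.213 in the optimal set, 0.232 with the strongest pooled entries and 0.253 over the listed span of chr7. With 1 replicate left out it was 0.216 to 0.217. The mm9 ratio was 0.279 to 0.372 with 1 replicate left out. The median signal ratio of 0.678 was 0.872 in the optimal set, 0.422 with no flanks and 0.837 to 0.963 with 1 replicate left out; the optimal set and each replicate's strongest entries held 16 window peaks. Members with a summit near a start numbered 0 within 1 kb. The longest interval was 1.31 Mb in the optimal set and 1.28 Mb with either replicate left out. The motif share was 0 at the 0.1% score over whole peaks and 11.1% within 100 bp of the midpoint. No paired analysis was possible because there is 1 group. Depth is unknown, so weak or missing peaks cannot be set against it.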

Other observations

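The strongest replicate entry of the domain without a conservative peak nearby was a replicate 2 summit between Ube3a and Snrpn, with a signal of 11.8 and rank 41873. Replicate 1 had no entry within 300 bp of it, and the nearest conservative summit lay 247.0 kb away. The 3 outer listed starts of Snrpn had upstream sequences of 250 bases that were 75.6% to 79.2% identical to one another, and 46.8% to 49.2% identical to that of the inner start. None of the 4 had a conservative summit within 2 kb.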
